A study of Mus musculus with 5 samples.

Results

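The comparison described here set thymic cells of mice injected with phosphate-buffered saline (PBS), the vehicle, beside thymic cells of untreated mice. It was described across 9882 genes of 19764 named on the array, and neither side received dexamethasone. For a gene with several probe sets, the one brightest on average over all 5 arrays of the study was used, and genes whose mean reached the median gene, a level limit of 5.28, were kept. The study used CD-1 mice, an outbred stock, all male and aged 4 to 6 weeks, and pooled the thymic cell suspensions of 3 animals for each array. The untreated pool received nothing, and the PBS pool was taken 4 h after an intraperitoneal injection of PBS. The remaining arrays, used here only to place genes, were animals taken 4 h after 0.2 mg dexamethasone per mouse, suspensions held 4 h in culture with 0.1% ethanol, and suspensions held 4 h in culture with dexamethasone.

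With 1 array per group nothing measures the spread between pools, and no test or error is given. The injection, the handling that went with it, the elapsed time and the animals themselves all differed between the pools. So did the cell suspension and the array, and the parts of all these in any difference cannot be told apart. The words higher and lower refer to these arrays alone. Where 5 levels are given together they stand in the order untreated, PBS, dexamethasone in vivo, ethanol culture and dexamethasone culture. A difference is the PBS level minus the untreated level on the log2 scale, and a level of one probe set is not set against that of another.

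A whole thymic suspension is mostly developing T cells, with fewer stromal, myeloid and blood cells, and the labels report no cell sorting. The thymus responds to adrenal glucocorticoids, so a vehicle injection is the usual control for a steroid injection. The untreated animals received no injection, and their array is not taken here as a resting state. The heat shock response, to which many of the lower genes belong, is driven by heat shock factor 1. This factor binds repeated heat shock elements near the start of chaperone genes when unfolded proteins accumulate, as in warmed or otherwise stressed cells. Its products hold, refold or hand over damaged proteins.

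The pools were close for most genes. Differences over the kept genes had a median of -0.01 and an SD of 0.294 across genes, and 92.9% of genes lay within 0.5 of 0. Pearson's r of levels over kept genes was 0.982, as a description of a pair of arrays. A 2-fold difference or more was found for 19 genes higher with PBS (0.192%) and 37 genes lower (0.374%). With quantile normalization of both arrays these counts were 26 and 33. At 4-fold the counts were 2 and 6, and at 1.5-fold they were 167 and 247. Among the kept genes 45.4% were above 0, 50.9% were below 0 and 367 were at exactly 0. The scatter was widest for dim genes, with an SD of 0.377 over the 1977 dimmest and 0.260 over the 1977 brightest. The genes at least 2-fold lower lay at both ends of the level range, with 16 among the dimmest 1977 and 11 among the brightest. Just inside the level limit, Aqp3 differed by 0.38 and AI854703 by 0.27. Just outside it, Cox6a2 differed by -0.03 and Cfap410 by 0.20.

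**Figure D1:**
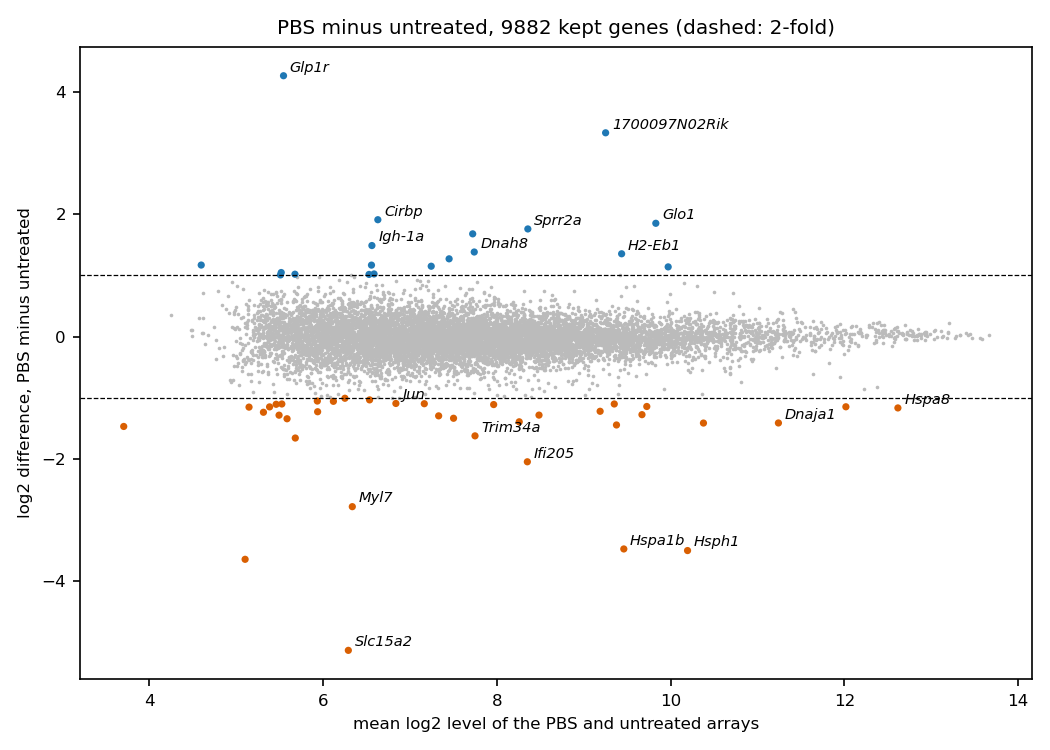
Log2 difference, PBS minus untreated, against the mean log2 level of both arrays for each of 9882 kept genes, with dashed lines at 2-fold. Most points lie in a band around 0, while 19 genes stand at or above the upper line and 37 at or below the lower one.

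Markers of the labelled tissue were present at high levels in both pools. Double-positive thymocytes, which carry CD4 and CD8 together, were represented by 18 kept genes of 19 listed. Rag1, a recombinase subunit that assembles T cell receptor genes, stood at 12.10 untreated and 12.03 with PBS, Cd8a at 11.92 and 11.84, and Cd4 at 9.99 and 9.98. The list had 0 genes past 2-fold and a median difference of -0.04. Its largest differences were Endou (0.72) and Tdrd5 (0.57), both higher with PBS, and then Cd8b1 (-0.43) and Rag2 (-0.40), both lower. In the list 6 genes were above 0 and 10 below. The 18 genes of the T cell receptor and CD3 complex had a median of 0.01, and the 15 mature single-positive thymocyte genes one of 0.05. Array medians were 4.37 untreated and 4.36 with PBS. The log2 difference between 3′ and 5′ control probe sets, a sign of RNA integrity, was 0.26 untreated and 0.20 with PBS for beta-actin, and -0.07 and -0.09 for Gapdh. The 9 spiked-in control probe sets read lower on the PBS array, by 0.11 to 0.50.

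The inducible chaperones contributed many of the lower genes and were mostly highest in the untreated pool. Of 24 kept members of 28 listed, 11 were at least 2-fold lower with PBS, 0 were at least 2-fold higher, 21 were below 0, and the median difference was -0.98. These 11 genes make up 29.7% of the 37 lower genes. The promoters of 3 of the 11 are shown because they hold the letters of the heat shock element in different number. They are the RefSeq windows of assembly GRCm38.p6 from 250 bases before to 50 after the gene start, 5′ to 3′ on the gene's strand. Capitals mark matches to GAANNTTC or TTCNNGAA, which are a pair of inverted heat shock units. Both forms read the same on either strand, and overlapping matches run together. Hspa1b lies at chr17:34959189-34959488 (minus strand), Hsph1 at chr5:149636287-149636586 (minus strand) and Chordc1 at chr9:18292017-18292316 (plus strand).
Hspa1b: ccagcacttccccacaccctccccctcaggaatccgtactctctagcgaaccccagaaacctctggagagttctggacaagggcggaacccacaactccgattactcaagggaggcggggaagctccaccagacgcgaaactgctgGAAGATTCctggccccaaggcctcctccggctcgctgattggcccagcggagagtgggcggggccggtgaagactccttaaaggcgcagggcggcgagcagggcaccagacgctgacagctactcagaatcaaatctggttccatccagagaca
Hsph1: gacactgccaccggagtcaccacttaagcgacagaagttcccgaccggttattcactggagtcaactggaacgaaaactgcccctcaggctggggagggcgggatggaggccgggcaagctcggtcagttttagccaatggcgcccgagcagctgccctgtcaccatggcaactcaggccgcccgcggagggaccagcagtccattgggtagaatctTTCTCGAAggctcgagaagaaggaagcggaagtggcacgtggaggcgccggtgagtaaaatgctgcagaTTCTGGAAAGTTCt
Chordc1: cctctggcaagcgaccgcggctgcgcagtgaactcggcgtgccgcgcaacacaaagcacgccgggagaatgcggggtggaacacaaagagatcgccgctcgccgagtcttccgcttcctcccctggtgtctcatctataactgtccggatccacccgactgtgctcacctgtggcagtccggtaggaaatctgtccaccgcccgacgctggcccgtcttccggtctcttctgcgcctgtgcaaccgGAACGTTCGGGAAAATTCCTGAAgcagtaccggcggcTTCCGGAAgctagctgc

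The Hspa1b window holds 1 match, that of Hsph1 3 matches in 2 separate stretches, and that of Chordc1 5 matches. A gene was counted if any of its windows held a match, and Hsph1 has 2 windows, of which 1 is shown. Matches were found in 10 of the 17 list members with a promoter in the table (58.8%). The shares were 4587 of all 27025 genes with a promoter there (17.0%) and 1027 of 7475 kept genes (13.7%). The members with a match were Bag3, Chordc1, Dnaja1, Dnajb4, Fkbp4, Hspa1b, Hspb1, Hspb8, Hspe1 and Hsph1. Longer forms, in which 1 more unit follows in line after 2 free bases, were searched after the data were seen. They occurred in 3 of the 17 (Chordc1, Hspe1 and Hsph1) and in 179 of all 27025 genes with a promoter (0.662%). The 10 members with the 2-unit letters had a median of -1.05 with 5 at least 2-fold lower, and the 7 without them a median of -1.14 with 4 at least 2-fold lower. The lowest difference was -3.50 among those with a match and -1.28 among those without, and Hsph1, Hspa1b, Chordc1 and Dnaja1, the 4 lowest of the list, all had one. A match is only a run of letters in this window, and its absence says nothing of the factor. Hspa8, Hsp90aa1, Hsp90ab1, Cryab, St13 and Hsf1 were among the members with no promoter in the table used.

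Hsph1, a large Hsp70-family protein that exchanges nucleotide on its partners, stood at 11.94 untreated and 8.45 with PBS, then 8.73, 7.59 and 7.72 on the other arrays. Untreated was far above every other array, and the PBS level was 11.3-fold lower, with a second probe set at -3.73. Hspa1b, the classical stress-inducible Hsp70, stood at 11.20, 7.73, 8.75, 4.62 and 4.85. Both injected pools were thus intermediate, above the cultured suspensions and below the untreated one. The PBS level was 11.1-fold lower than the untreated one, and its 4 probe sets ran from -4.29 to -3.37. Hspa1b has a near-identical copy, Hspa1a, whose transcripts the probes may share.

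Hsp70 and Hsp90 proteins made in unstressed cells too were lower by smaller amounts. Hspa8, the constitutive Hsc70, stood at 13.20, 12.03, 12.56, 11.69 and 12.04, a difference of -1.17 at one of the highest levels on the array. Hsp90aa1, the inducible cytosolic Hsp90, stood at 12.59, 11.44, 11.15, 10.88 and 10.72 (-1.15). Its constitutive partner Hsp90ab1 differed by -0.62, short of 2-fold. Hspa4l, an Hsp110-type exchange factor, stood at 9.13, 7.84, 8.11, 8.06 and 7.94 (-1.28), whereas the related Hspa4 differed by -0.26. On the probe sets used, all of these but Hspa4 and Hsp90ab1 passed 2-fold, and untreated was the highest array for each. The 4 probe sets of Hspa8 ran from -1.41 to -0.63, and the 4 of Hsp90aa1 from -1.50 to -0.64. On the Hsp90aa1 probe set at -0.64, untreated (8.60) was below the dexamethasone culture (8.91). Passing 2-fold thus depended on the probe set for Hspa8 and Hsp90aa1.

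Co-chaperones, which deliver clients or regulate the ATPase of Hsp70 and Hsp90, followed. Among J-domain proteins, Dnaja1 stood at 11.95, 10.54, 10.41, 10.25 and 10.02 (-1.41), and Dnajb1, the Hsp40 partner of inducible Hsp70, at 10.30, 9.15, 9.24, 9.07 and 9.24 (-1.14). In both, the 4 other arrays lay close together below the untreated one. Of the other Dnaja1 probe sets, one was at -1.51 and one, near the bottom of the scale on every array, at 0.03. Chordc1, an Hsp90-binding protein, stood at 11.08, 9.67, 9.42, 9.70 and 9.76 (-1.41). Ahsa1, the activator of Hsp90 ATPase, stood at 10.31, 9.03, 8.91, 8.92 and 9.02 (-1.28). Again the 4 other arrays lay close together, and untreated alone was high. Stip1, the adaptor that links Hsp70 to Hsp90, stood at 9.80, 8.58, 8.28, 8.18 and 8.22 (-1.22), and Fkbp4, an immunophilin of steroid receptor complexes, at 9.90, 8.80, 8.50, 8.19 and 8.34 (-1.10). The other probe sets of Fkbp4, at low levels on every array, differed by 0.01 and -0.08.

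Short of 2-fold were Bag3 (-0.99), Dnajb4 (-0.96), Cacybp (-0.93), St13 (-0.79) and Hspe1 (-0.57). Near 0 or above it lay the small heat shock proteins Hspb8 (-0.01) and Hspb1 (0.06), with Cryab at -0.15, and Serpinh1 (0.20), a collagen chaperone of the endoplasmic reticulum. Hsf1, the transcription factor itself, differed by -0.18. For 19 of the 24 genes untreated was the highest of 5 arrays, against 20.1% of all kept genes, and this held for all 11 past 2-fold. The smallest gap from untreated to the next array among those 11 was 0.64.

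**Figure D2:**
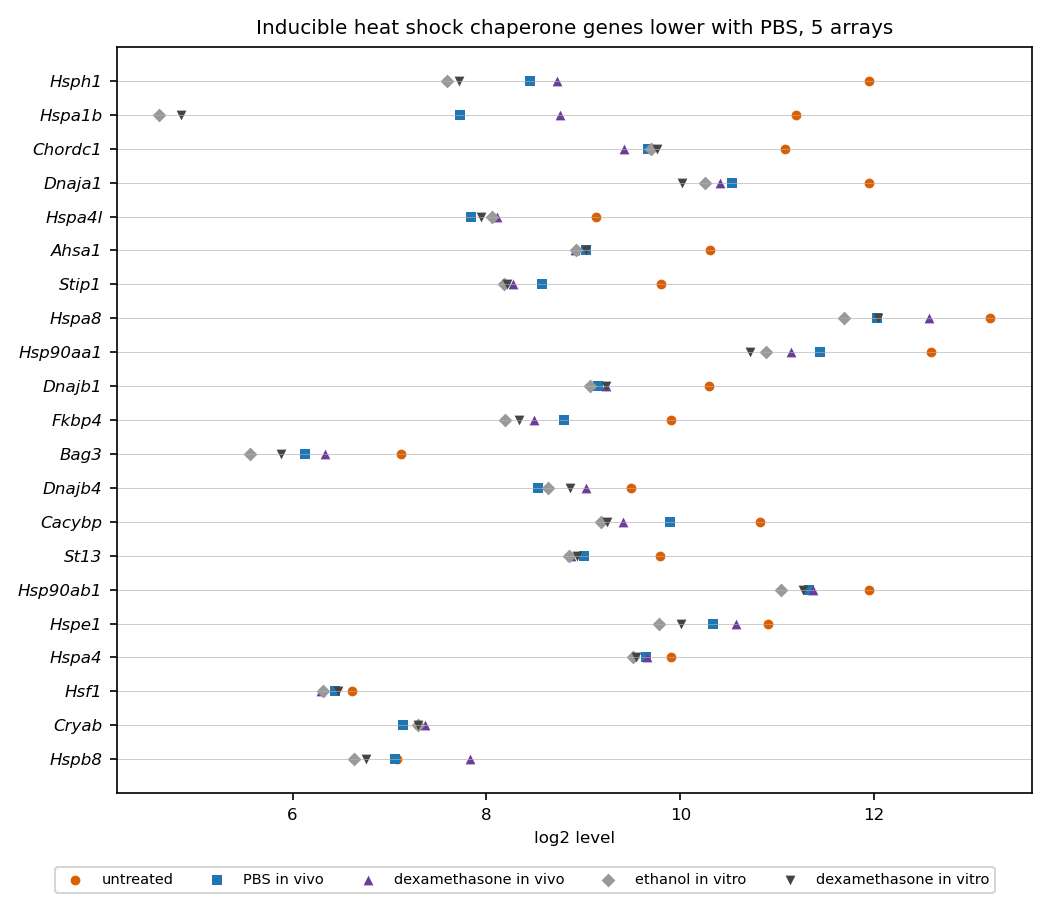
Log2 level, on each of the 5 arrays, of the 21 inducible heat shock chaperone genes with a difference below 0, 1 point per array. The untreated point is the rightmost for 19 of them, and for Hspa1b and Hsph1 the PBS and dexamethasone in vivo points lie between the untreated and the cultured ones.

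Other protein-folding genes differed less, in the same direction. The 13 cytosolic chaperonin and prefoldin subunits, which fold actin and tubulin, had 11 members below 0, a median of -0.23 and 0 past 2-fold, with Cct8 at -0.54. The 21 genes of endoplasmic reticulum and amino acid stress had 17 below 0, a median of -0.22 and 0 past 2-fold. Trib3, a pseudokinase of the stress response, was at -0.79, Dnajc3 at -0.53 and Hspa5, the lumenal Hsp70 BiP, at -0.30. Proteasome subunits (26 genes) had a median of 0.01. Outside these lists, P4ha1, a collagen prolyl hydroxylase, shared the pattern of 1 high array at 8.17 untreated and 6.83, 7.14, 6.64 and 6.68 elsewhere (-1.33). Reln, which encodes the secreted protein reelin, stood at 10.10, 8.65, 8.55, 8.46 and 8.41 (-1.44), although both its other probe sets, at low levels, read 0.38.

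Of 2 cold-inducible RNA-binding protein genes listed, both were above 0 and only 1, Cirbp, was at least 2-fold higher. Cirbp, an RNA-binding protein known to increase on mild cooling, stood at 5.68 untreated, 7.58 with PBS, 6.87 with dexamethasone in vivo, and 8.78 and 8.44 in culture. Untreated was the lowest of the 5 arrays and PBS was 3.75-fold above it. Rbm3, another cold-inducible RNA-binding protein, stood at 11.09, 11.36, 11.34, 11.95 and 11.97, with the same low and high arrays but a difference of only 0.27.

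Among the 20 highest genes, 4 lie beside each other on the chromosome. In RefSeq gene order these were Glo1, 1700097N02Rik, Dnah8 and Glp1r, flanked by Btbd9 on one side and by Umodl1 and Abcg1 on the other. Glo1, glyoxalase I, which detoxifies methylglyoxal, stood at 8.90, 10.75, 10.50, 9.89 and 9.83, 3.60-fold higher with PBS. Its 4 probe sets ran from 1.25 to 1.85. 1700097N02Rik, a long non-coding RNA, stood at 7.59, 10.92, 9.95, 9.58 and 9.42 (10.04-fold), with 3 probe sets from 2.42 to 3.68. For both genes untreated was lowest, the cultured arrays were in the middle and the injected arrays were highest.

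Dnah8, an axonemal dynein heavy chain, stood at 7.05, 8.43, 7.95, 7.43 and 7.26 (1.38), with a second probe set at 0.44. Glp1r, the receptor for glucagon-like peptide 1, stood at 3.41, 7.67, 6.95, 5.62 and 5.92 (4.26). The untreated level is below that array's median of 4.37, so the size of this difference is not exact. Its second probe set read 3.35 untreated and 3.57 with PBS, a difference of 0.22, so the value rests on 1 probe set. In all 4 genes untreated was lowest, PBS highest and dexamethasone in vivo next below it, with both cultured arrays between. The kept flanking genes were short of 2-fold: Btbd9 differed by 0.30, with 7 probe sets from -0.05 to 0.30, Zfand3 by -0.01 and Abcg1 by -0.06. As background, a duplication spanning Glo1, Dnah8 and Glp1r is known to segregate among laboratory mice. The files hold no genotype of the pooled animals, and its part in these values was not tested.

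**Figure D3:**
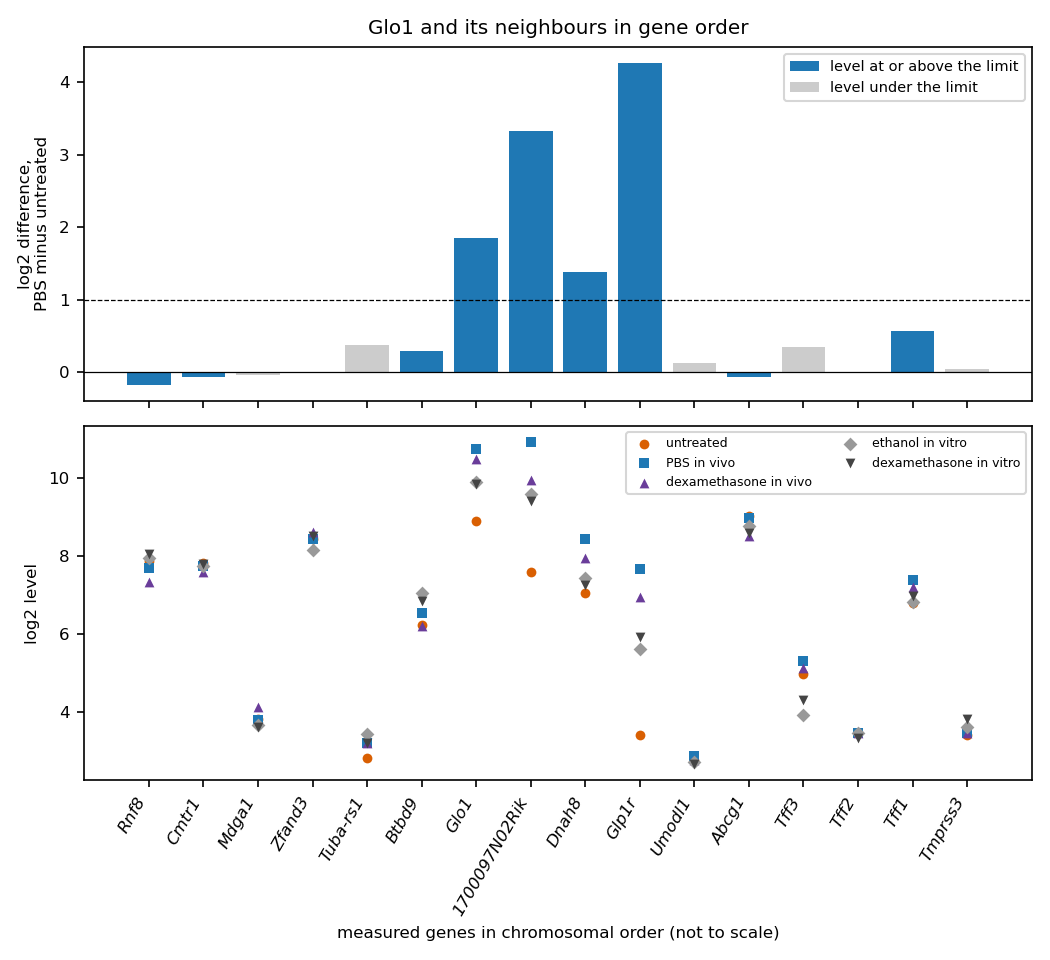
Measured genes around Glo1 in chromosomal order, not to scale, with the log2 difference of PBS minus untreated above and the log2 level on each of the 5 arrays below. Glo1, 1700097N02Rik, Dnah8 and Glp1r stand above the 2-fold line at 1.38 to 4.26, and the kept neighbours on either side lie below it.

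A further set of genes was lower in both injected pools than in the untreated pool. The cultured suspensions were near the untreated pool or between it and the injected pools. Slc15a2, a proton-coupled peptide transporter, was at the lower end of the kept genes. It stood at 8.85 untreated, 3.73 with PBS, 3.81 with dexamethasone in vivo, and 8.42 and 8.17 in culture. The injected arrays were far below the others, a difference of -5.12. Both injected levels lie below the median of all probe sets on the PBS array, 4.36, and with no detection calls used here the size of the difference is not exact. The other 2 probe sets of Slc15a2 were dim on every array, with differences of 0.08 and 0.17.

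Trim34a, of the tripartite-motif family of interferon-linked genes, stood at 8.56, 6.94, 6.97, 8.47 and 8.26 (-1.62). Another of its 5 probe sets showed the reverse, at 5.90, 7.36, 7.62, 5.77 and 5.87 (1.46). Both probe sets thus split the arrays in the same way, injected against not injected, with opposite signs, so no direction is given for the gene as a whole. Trim12c, which lies near Trim34a with 1 measured gene between them, stood at 6.51, 4.85, 5.32, 6.39 and 5.55 (-1.66), with the dexamethasone culture close to the injected arrays. Trim30a, in the same gene cluster, differed by -0.10, and Trim68, a family member elsewhere in the gene order, stood at 5.93, 4.69, 4.06, 6.16 and 5.90 (-1.24).

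Gprasp1 and Gprasp2, adjacent genes for proteins that sort G protein-coupled receptors, stood at 8.95, 7.56, 7.54, 8.18 and 8.12 (-1.39) and at 6.26, 4.91, 5.08, 5.59 and 5.70 (-1.34). Their next neighbour Bhlhb9 differed by -0.03. Ifi205, of the interferon-inducible Ifi200 family, differed from these genes, at 9.37, 7.33, 9.85, 9.62 and 10.27, so PBS alone was low (-2.05). Its probe sets ran from -2.10 to -0.38, and related family genes with near-identical sequence could share its probes.

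Over all 37 lower genes, the untreated array was the highest of 5 in 27 and the PBS array the lowest in 16. In 17 of them the 3 remaining arrays were all nearer PBS, as for the chaperones. In 11 the dexamethasone in vivo array was nearer PBS and both cultured arrays nearer untreated, as for Slc15a2. Of the 19 higher genes, PBS was the highest array in 13 and untreated the lowest in 13. In 9 of them all 3 remaining arrays were nearer PBS, and in 5 only the dexamethasone in vivo array was.

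Heart muscle transcripts were present in the untreated pool and low in the PBS pool. Of 19 listed heart and muscle genes on the array, 10 were at least 2-fold lower with PBS and 0 at least 2-fold higher. Outside the list, the muscle genes Actn3 and Tmod4 differed by 1.02 and -1.10. Only 2 of the 19 reached the level limit, Myl7 and Acta1 (-0.34), so the others below are outside the kept genes and were chosen after their values were seen. Among all 9882 genes under the limit, 42 were at least 2-fold lower and 11 at least 2-fold higher. Myl7, the atrial regulatory myosin light chain, stood at 7.72, 4.95, 7.20, 4.20 and 3.94, 6.86-fold lower with PBS. Both the untreated and the dexamethasone in vivo arrays were high, and the rest were low.

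Myl4, the atrial essential light chain, stood at 7.50, 3.61, 6.66, 3.37 and 3.82 (-3.90). Myh6, a cardiac myosin heavy chain, stood at 6.58, 2.78, 5.83, 2.60 and 2.54 (-3.80), and Actc1, cardiac actin, at 7.22, 4.59, 6.97, 3.30 and 3.55 (-2.64). The remaining lower genes were Sln (-2.73), Tnnt2 (-2.68), Myh7 (-2.67), Mb (-2.49), Tnni3 (-2.09) and Tnnc1 (-1.74), all parts of the contractile or calcium-handling apparatus of muscle or, for Mb, its oxygen store. Over the 10 genes the levels had a median of 6.62 untreated, 3.94 with PBS, 5.68 with dexamethasone in vivo, 3.44 in ethanol culture and 3.66 in dexamethasone culture. The PBS median lies below that array's median over all probe sets, so the sizes of these differences are not exact. Whether the suspensions differed in heart tissue taken with the thymus was not tested. The dexamethasone in vivo array exceeded PBS by at least 2-fold in 9 of the 10. The ventricular light chains Myl2 and Myl3 were dim and nearly flat on all 5 arrays, at 2.68 to 2.93 and 4.58 to 4.69. Their differences of -0.23 and 0 therefore carry little information about ventricular transcripts.

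**Figure D4:**
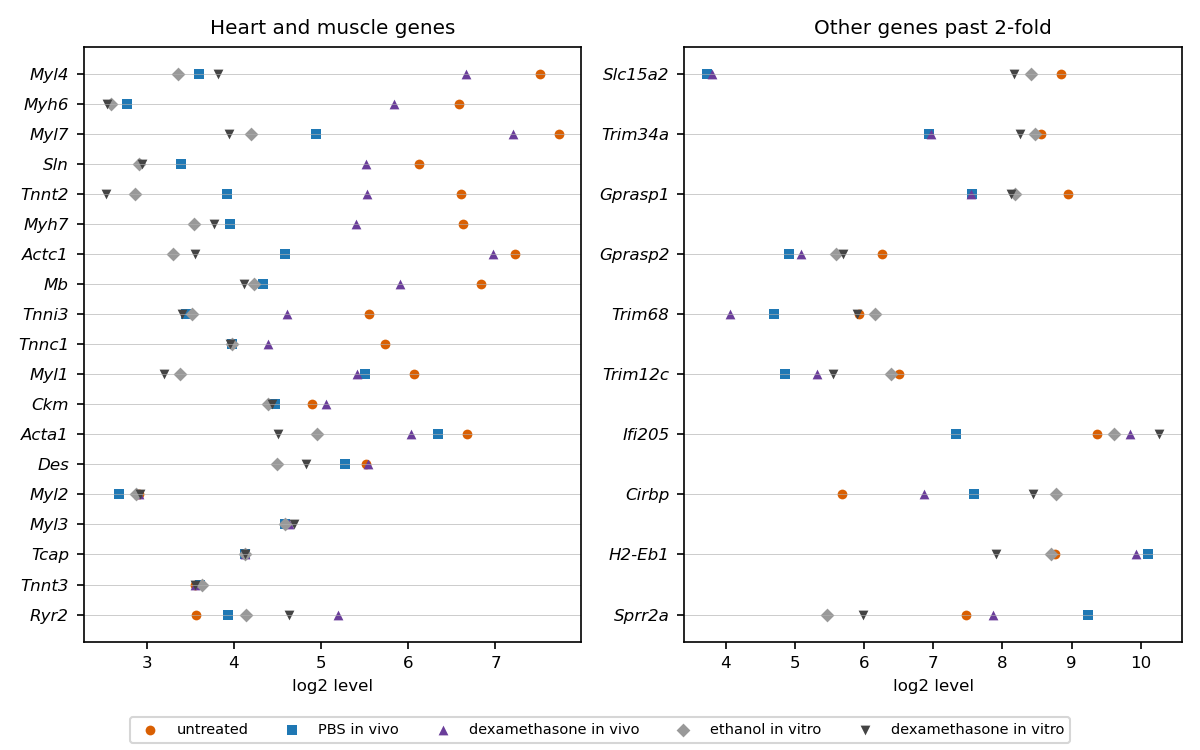
Log2 level on each of the 5 arrays for heart and muscle genes (left) and for further genes past 2-fold (right), 1 point per array. For Myl7, Myl4, Myh6 and Actc1 the untreated and dexamethasone in vivo points lie to the right, whereas for Slc15a2 the untreated and cultured points do.

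Markers of granulocytes were higher with PBS as a group, each by less than 2-fold. All 11 kept members of 20 listed were above 0, with a range of 0.35 to 1.00 and a median of 0.75. In bulk samples a different number of cells of a type and a different amount of RNA per cell cannot be told apart. Ngp, a neutrophil granule protein, stood at 8.92, 9.92, 9.55, 9.21 and 9.45. S100a9 and S100a8, which form the abundant neutrophil protein calprotectin, stood at 9.89, 10.72, 10.75, 9.93 and 10.07 (0.83) and at 10.37, 11.07, 11.08, 10.003 and 10.30 (0.71). Both injected arrays were the high ones for each S100 gene. Mpo, myeloperoxidase, stood at 5.72, 6.65, 6.24, 5.16 and 5.95 (0.93), and Camp, Elane and Ltf, granule proteins, differed by 0.81, 0.75 and 0.72. The median level of the list was 7.15 untreated, 7.82 with PBS and 7.95 with dexamethasone in vivo.

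Other accompanying cells differed less or were poorly measured. The 10 adipocyte genes had 8 below 0 and a median of -0.29, with Ucp1, the uncoupling protein of brown fat, at 8.80 untreated and 7.85 with PBS (-0.95) and Cd36, a fatty acid transporter, at -0.92. Only 3 of 16 erythroid genes were kept, namely Alas2 (-0.94), which makes haem precursors, Hba-a1 (12.78 and 11.96, -0.82) and Car2 (-0.13), and the erythroid median without the level limit was 0.06. The 4 kept natural killer and gamma-delta T cell genes were all above 0, with a median of 0.37. Medians lay at 0.10 for 16 thymic epithelium genes, -0.08 for 13 fibroblast genes, -0.02 for 13 macrophage genes, 0.05 for 6 dendritic cell genes, -0.07 for 8 B cell genes and 0.06 for 5 endothelial genes, with 0 past 2-fold in each.

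Antigen presentation genes were mixed. Of 22 kept MHC genes, 2 were at least 2-fold higher, and the median was 0.08. H2-Eb1, the beta chain of a class II molecule, stood at 8.76, 10.11, 9.94, 8.71 and 7.91 (2.55-fold), with both injected arrays high. H2-DMb1, a chain of the peptide exchanger for class II, stood at 6.82, 8.08, 7.58, 6.39 and 6.17 (1.27), with 1 of its other probe sets also at 1.27 and 1 at -0.03. The class II partners H2-Aa (0.23), H2-Ab1 (0.18) and Cd74 (0.05), the invariant chain, did not share this, and the class I gene H2-L was at -0.84. These genes are highly polymorphic with similar sequences, and probes may read alleles unequally.

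A few further genes led the higher end. Sprr2a and Sprr2a1, small proline-rich proteins of the epithelial cornified envelope, stood at 7.48, 9.24, 7.86, 5.46 and 5.99 (3.38-fold) and at 6.88, 8.56, 6.90, 4.63 and 4.92 (1.68), with PBS the highest array for both. They are near-identical copies and may not be separate measurements. Of the relatives kept, Sprr1a differed by 0.48 and Sprr2d by -0.31. Igh-1a, an immunoglobulin heavy chain gene, stood at 5.82, 7.30, 6.18, 4.41 and 4.95 (1.49), while the 5 other kept immunoglobulin genes lay between -0.39 and -0.01. Ctse, cathepsin E, stood at 9.40, 10.54, 11.35, 11.49 and 11.72 (1.14), with untreated the lowest array and PBS the next. Haghl (1.15), related to the glyoxalase pathway enzyme Hagh, had 3 probe sets from 1.15 to 1.44.

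Genes that respond to glucocorticoids did not separate the pools as a group. Of 25 kept members 9 were above 0 and 16 below, 0 passed 2-fold, and the median was -0.07. Fkbp5, a co-chaperone induced through the glucocorticoid receptor, stood at 9.94 untreated and 9.88 with PBS, and Tsc22d3, the glucocorticoid-induced leucine zipper, at 8.93 and 8.68. Per1 differed by 0.06. The largest differences were Cebpd (-0.73) and Nfil3 (-0.70), both transcription factors, Bbc3 (-0.62), which encodes the pro-apoptotic protein Puma, and Errfi1 (-0.58), all lower with PBS, whereas Ddit4 was at 0.43.

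Immediate-early genes, which respond within minutes to signals, were mostly a little lower with PBS. Of 22 kept members 15 were below 0, 1 was at least 2-fold lower and the median was -0.23. Jun, an AP-1 subunit, stood at 7.38, 6.29, 9.46, 5.75 and 6.37 (-1.09), with a second probe set at -0.69. Fos differed by -0.28 and Egr1 by -0.26, and Klf4 and Klf6 by -0.60 and -0.59. Among 13 clock genes 9 were below 0, with a median of -0.15. Clock (-0.80), Bhlhe40 (-0.58) and Nr1d2 (-0.32) were lower with PBS. Dbp (0.43) and Nr1d1 (0.41) were higher, while Tef (0.07) and Per1 (0.06) lay near 0. The hour at which the animals were taken is not given in the sources used here.

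Interferon response genes leaned lower and cholesterol genes higher, all short of 2-fold. Of 26 interferon response genes 21 were below 0, with a median of -0.24. Rsad2, the antiviral protein viperin, was at -0.77, Isg15, a ubiquitin-like modifier, at -0.62, Stat2, a signalling subunit, at -0.61, and Cxcl10, a chemokine, at -0.60. The letters GAAA repeated after 2 free bases are part of the interferon-stimulated response element. On either strand they occurred in 12 of the 19 list genes with a promoter (63.2%) and in 1079 of all 27025 genes (3.99%). They also occurred in the windows of Ifi205, Trim12c, Trim34a and Gprasp1, 4 of the 25 lower genes with a promoter in the table. Trim34a is counted there by the probe set used, while another of its probe sets was higher with PBS. Of 21 cholesterol synthesis genes 18 were above 0, with a median of 0.21. The enzyme genes Mvk and Cyp51 differed by 0.65 and 0.46.

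Lists of processes that occupy proliferating and dying thymocytes had medians near 0. Medians were 0.01 for 24 mitosis genes, -0.04 for 28 DNA replication genes, 0.01 for 18 glycolysis genes, -0.13 for 17 ribosome biogenesis genes, 0.00 for 19 p53 target and pro-apoptotic genes, -0.02 for 13 NF-kB and cytokine genes and 0.05 for 14 oxidant and metal response genes. None of these lists held a gene past 2-fold, 0 in each direction.

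**Figure D5:**
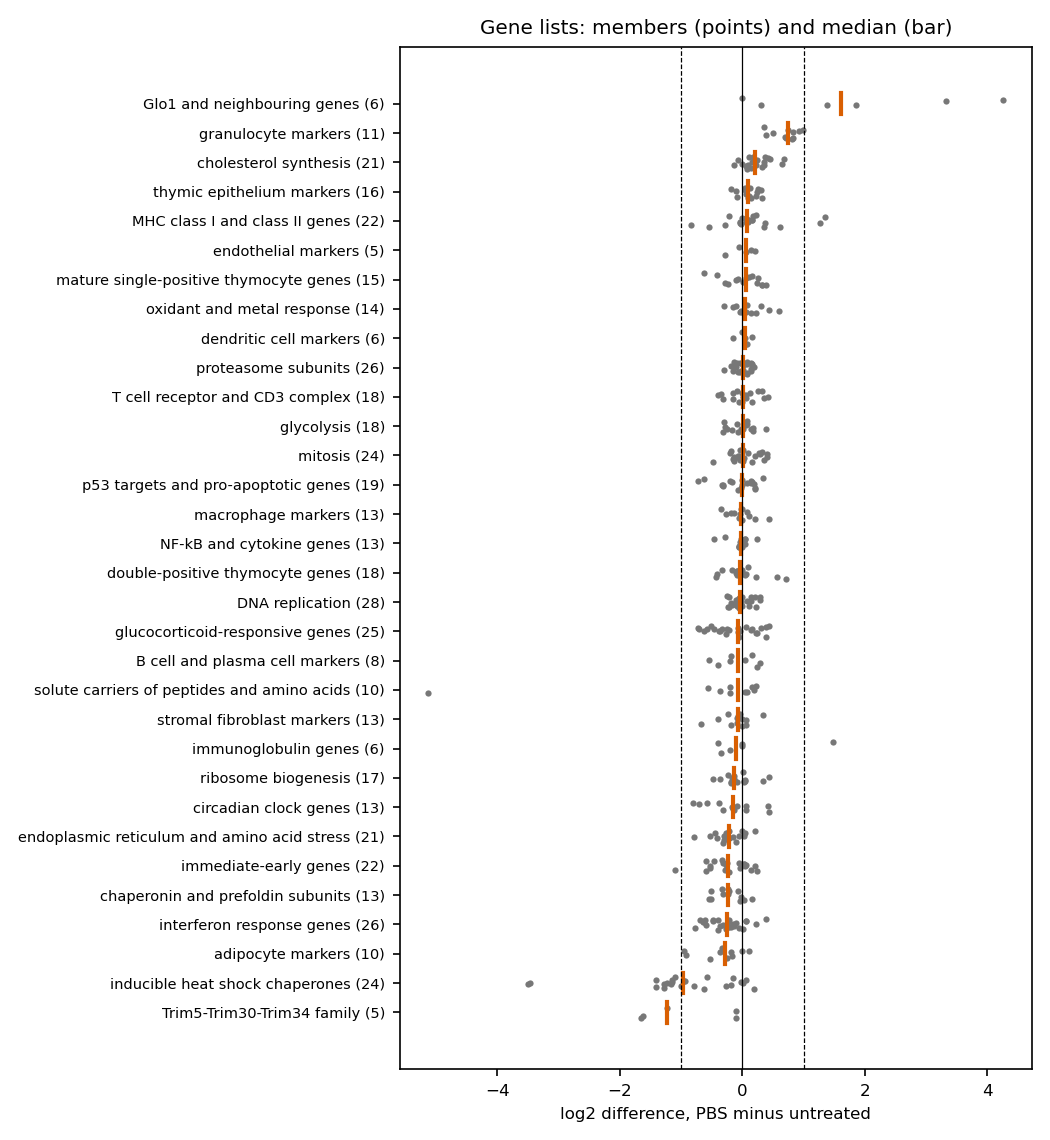
Log2 difference, PBS minus untreated, of the kept members of each gene list, with a point per gene and a bar at the list's median. The heat shock list lies farthest to the left among lists of more than 10 genes with a median of -0.98, and the granulocyte list farthest to the right with a median of 0.75.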

How the data were processed

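RNA of thymic suspensions pooled from 3 mice was measured on 1 Affymetrix array per group. The authors deposited log2 values and a matrix of the same values as linear intensity, and the submitters' processing notes name RMA. The RMA version is not given in the sources used here. Deposited log2 values differed from the log2 of the deposited intensity by at most 7.11e-15. Precision is limited by the number of arrays.

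Older symbols were replaced by those of RefSeq (GRCm38.p6), which also gave the gene order, and 45101 probe sets gave 19764 genes. Differences were taken between the PBS and untreated arrays, with 2-fold as the size counted and no test. Python 3.11.15 with pandas 2.3.3 and numpy 2.4.6 was used, and the counting was tested on simulated data.

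The 41 gene lists and the members were chosen with earlier results of these data known. Named genes were the 20 highest and 20 lowest, up to 5 members of each list with the largest differences plus its highest-level member, all members of lists of at most 6, genes beside the level limit and runs of neighbours. Any further gene given a value was chosen after its value was seen. Alternatives were the level filter, the probe set rule, the scaling and 16 added to the intensity.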

Additional observations from a re-analysis of the deposited data

How the results depend on the processing

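Counts of genes at least 2-fold higher and lower, 19 and 37, became 30 and 79 with no level filter, 12 and 23 with 16 added to the linear intensity, and 12 and 20 with the probe set of smallest difference per gene. Quantile normalization gave 26 and 33, sharing 19 and 33 genes with the main lists. The median of the heat shock list, -0.98, was -0.60 with the smallest-difference probe set and between -0.97 and -0.92 under centring, quantile normalization, the mean of probe sets, no level filter and the added 16. With the smallest-difference probe set, genes past 2-fold that turned sign included BC018473 at 0.13, Dnaja1 at 0.025, Fkbp4 at 0.008 and H2-DMb1 at -0.028. Reln at 0.38 and Slc15a2 at 0.075 also turned sign, as did Btbd9, short of 2-fold, from 0.30 to -0.01. That rule takes the value nearest 0, so such turns follow from its construction. Without the level filter the median of Glo1 and its neighbours went from 1.62 to 0.30, and that of the Trim family from -1.24 to -0.10, since dim members entered. Of the 56 genes past 2-fold, 33 have more than 1 probe set, and in 15 another was past 2-fold the same way. No paired analysis was possible because each group has 1 array. Dim PBS levels limit the sizes given for heart genes and Slc15a2.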

Other observations

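Among 702 probe sets with no gene name at or above the level limit, 0 were at least 2-fold higher with PBS and 17 (2.42%) at least 2-fold lower. Among the 9882 named genes left out for their level, 11 were at least 2-fold higher and 42 lower. BC018473, of unannotated function, stood at 4.44 untreated, 2.97 with PBS, 9.35 with dexamethasone in vivo, and 11.02 and 10.75 in culture, so its difference of -1.47 lies between a pair of dim values. Thbs1, the matrix protein thrombospondin 1, stood at 6.13, 4.85, 9.97, 3.88 and 3.13 in the same order, with a difference of -1.28. Its other probe sets differed by -0.51 and -0.90, short of 2-fold.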
